A study of Mus musculus with 12 samples.

Results

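The genes described here were 37 genes of fatty acid oxidation and ketone metabolism in mouse liver, out of 24019 genes with a measured transcript level. They were chosen by name, and their levels were taken as the sum of FPKM (a count of fragments scaled to transcript length and to the size of the library) over the transcripts of each gene. By role they comprised 5 genes of fatty acid transport and activation, 12 of the mitochondrial spiral, 3 of electron transfer, 9 of the peroxisome, 4 acyl-CoA thioesterases, 2 of ketone metabolism, and the regulator Ppara with the sensor gene Vnn1. Livers came from male wild-type C57BL/6J mice in 3 groups with 2 mice in each. Control mice ate normal chow for 28 weeks and had no surgery. Sham and VSG mice ate a high-fat diet with 60 kcal% fat from 8 weeks of age, for 14 weeks before and 14 weeks after their operation, apart from a liquid diet on the first 4 days after it. VSG (vertical sleeve gastrectomy) removed about 80% of the stomach, whereas the Sham operation pressed the stomach with forceps and removed nothing. Control therefore differs from both other groups in diet and surgery together. RNA-seq was carried out on the livers that were also used for FAIRE-seq, which enriches open chromatin and was available as 1 list of reproducible peaks per group.

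Fatty acids are activated to acyl-CoA, carried into mitochondria through the carnitine shuttle, and shortened there in cycles of dehydrogenation, hydration, a further dehydrogenation and thiolysis. Very long and branched chains are first shortened in peroxisomes, and in the fasted liver the acetyl-CoA that results feeds the making of ketone bodies. Many of these genes are textbook targets of PPARα, a nuclear receptor that is activated by fatty acids and drives their oxidation during fasting.

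The liver identity of the samples was checked with hepatocyte markers. Apoa1 lay between 6334 and 11117 FPKM and Ttr between 1011 and 4143 FPKM in the 6 mice. Apob was listed at 0 in Sham mouse 1 and lay between 196 and 371 FPKM in the other mice, so a value of exactly 0 in these data may be a failed estimate rather than a missing transcript. Absolute depth is not given by FPKM, and the step size of low values placed the libraries at 0.675 (Sham mouse 1) to 1.56 (VSG mouse 1) times the depth of Control mouse 1. Sham mice lay far apart from each other: the median fold between the 2 mice of a group over 8206 genes was 1.18 in Control, 1.42 in Sham and 1.29 in VSG. Summed levels of markers of other liver cells also differed between the groups. The summed level of 9 Kupffer cell markers was 27.4 to 41.3 FPKM in Control, 96.3 to 102 in Sham and 80.6 to 269 in VSG mice, that of 8 neutrophil markers 5.33 to 14.1, 43.4 to 47.2 and 16.99 to 23.04, and that of 7 endothelial markers 21.6 to 45.9, 6.40 to 8.71 and 29.7 to 32.8. For 7 stellate cell markers it was 46.5 to 47.7, 17.4 to 30.7 and 50.2 to 65.2, and for 6 cholangiocyte markers 30.7 to 32.8, 62.9 to 186 and 30.9 to 145. The summed levels of endothelial and stellate markers were thus lowest in both Sham mice. Single markers did not all follow the sums. Of the tested markers, 1 of 5 stellate ones was above 0 in log2 difference for Sham minus Control. For VSG minus Sham, 1 of 6 endothelial and 1 of 5 stellate markers were below 0. No gene of these 5 lists was at 0 in all mice. The filter left 9 Kupffer cell, 3 neutrophil, 6 endothelial, 5 stellate and 2 cholangiocyte markers for the test. None of them passed an FDR of 10% in any comparison. Markers with an unadjusted limma p under 0.05 were counted in the same order of lists. For Sham minus Control they were 3, 2, 3, 1 and 1. For VSG minus Sham they were 1, 1, 3, 3 and 1, and for VSG minus Control 5, 1, 0, 1 and 0. Of all genes, 11% had such a p between Sham and Control, 4.86% between VSG and Sham and 9.6% between VSG and Control. The lists were not tested against these shares. The part of these cells in the results below was not tested, and in bulk tissue fewer cells of a type and less RNA per cell cannot be told apart.

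Most of the 37 genes were abundant. There were 31 genes above 0 in every mouse, with means over the 6 mice from 24.0 FPKM (Ppara) to 573 FPKM (Acaa2, the mitochondrial thiolase). A mean of at least 100 FPKM was reached by 22 genes. Pex11a, a peroxisomal membrane protein, was listed at 0 in all mice and could not be tested. The other 5 genes with a 0 in 1 or more mice were Crat, Hadhb, Acot2, Acot3 and Acot4. Of the 45 transcripts of these genes, 5 were listed at 0 in every mouse. Hence 36 of the 37 genes passed the filter of at least 1 FPKM in at least 2 mice.

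Genes were compared between groups with limma on log2(FPKM + 1), over 9748 genes, at a false discovery rate (FDR) of 10%. None of the 36 genes passed this test in any of the 3 comparisons. Of all genes tested, 0.308% (30 genes) passed between Sham and Control, 0.0513% (5 genes) between VSG and Sham and 0.287% (28 genes) between VSG and Control. At an unadjusted p under 0.05, which carries no correction, limma marked 6 of the 36 genes (16.7%, against 11% of all genes) between Sham and Control, 5 (13.9%, against 4.86%) between VSG and Sham and 4 (11.1%, against 9.6%) between VSG and Control. All differences named below are therefore descriptions of 2 mice against 2, a design in which an exact permutation test of a single gene cannot give a two-sided p below 0.333.

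The median log2 difference of the 36 genes was -0.06 for Sham minus Control, where all genes had a median of 0.03. It was 0.36 for VSG minus Sham, against 0.08 for all genes, and 0.22 for VSG minus Control, against 0.12. Median-of-ratios scaling, which moved the median of all genes to about 0 in each comparison, gave -0.11, 0.25 and 0.06 in the same order. The difference was above 0 at 17 of the 36 genes (47.2%, against 52.6% of all genes) for Sham minus Control, at 29 (80.6%, against 59.8%) for VSG minus Sham and at 25 (69.4%, against 61.2%) for VSG minus Control. Without Sham mouse 2 the median for VSG minus Sham was 0.07 (all genes 0.01), and that for Sham minus Control was 0.26 (all genes 0.10). Without VSG mouse 2 the median for VSG minus Control was 0.07, below that of all genes (0.12). Among the 31 genes above 0 throughout, Sham mouse 2 had the lowest level of the 6 mice at 11 (35.5%, against 22.9% of 8206 genes above 0 throughout) and VSG mouse 2 the highest at 15 (48.4%, against 23.5%). Both were also the mice most often in these places over all genes. The median deviation from the 6-mouse mean over these 31 genes was -0.29 in Sham mouse 2 and 0.17 in Sham mouse 1 on the log2 scale, so the 2 Sham mice did not share a general level. The median over all genes was -0.01 and 0.06 in the same mice.

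**Figure D1:**
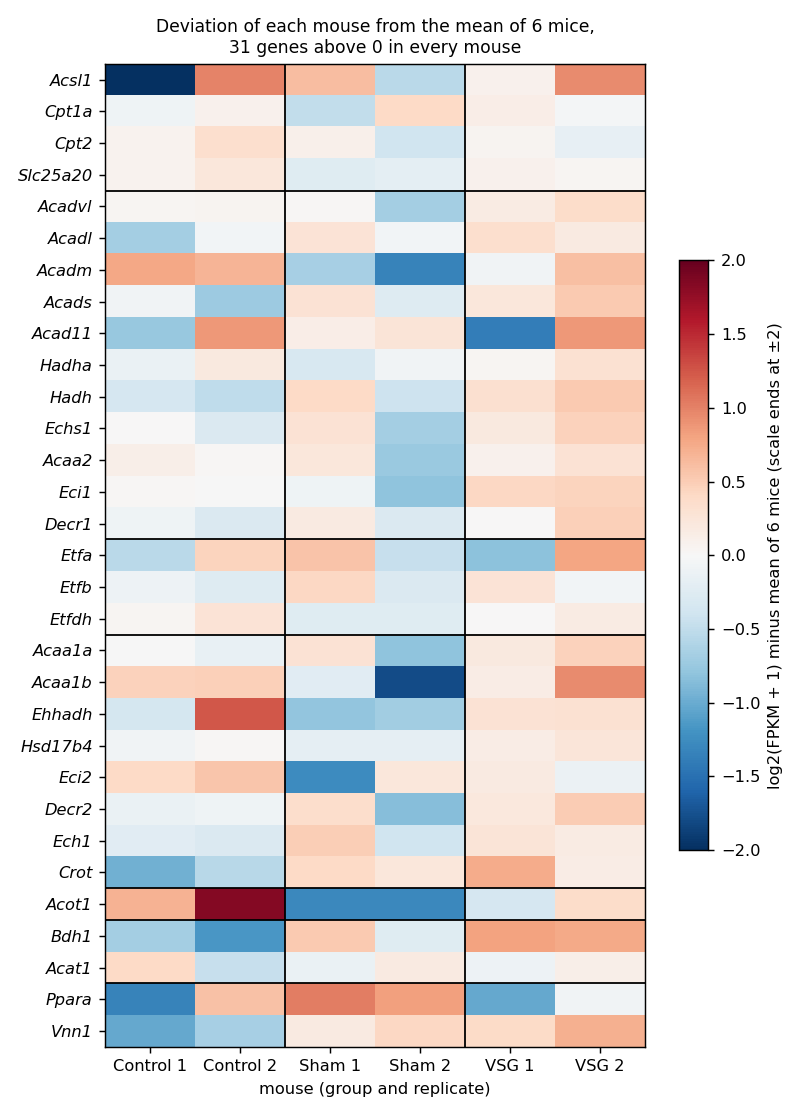
Each row is 1 of the 31 genes above 0 in every mouse, ordered by role with black lines between roles, and each column is 1 mouse. Colour gives log2(FPKM + 1) minus the mean of the 6 mice, and the column of Sham mouse 2 is mostly blue (median -0.29) while that of VSG mouse 2 is mostly red (median 0.37).

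Groups without overlap were counted next. Both Sham mice lay below both Control mice at 12 of the 36 genes (33.3%), where 20.6% of all genes did so, and above them at 4 (11.1%), where 25.4% of all genes did. Both VSG mice lay above both Sham mice at 13 genes (36.1%, against 18.6%) and below at 2 (5.56%, against 9.79%). Both VSG mice lay above both Control mice at 16 genes (44.4%, against 33.8%) and below at 5 (13.9%, against 14.9%). These counts share the mice of 1 group between each pair of comparisons and are not independent of each other. They include genes with a mouse listed at 0, among them Acot2, Acot3, Acot4 and Hadhb. Under median-of-ratios scaling VSG lay above Sham at 11 genes (30.6%, against 13.1%) and below at 2 (5.56%, against 14.2%), and above Control at 12 (33.3%, against 23.7%) and below at 7 (19.4%, against 23%). Without Sham mouse 2, the lone Sham mouse lay below both Control mice at 14 genes (38.9%, against 35.4% of all genes) and above them at 16 (44.4%, against 46.6%), and both VSG mice lay above it at 17 (47.2%, against 36.4%). The shares of the 36 genes below Control and above Sham were then closer to those of all genes. Without Sham mouse 1, the lone Sham mouse lay below both Control mice at 19 genes (52.8%, against 38.1%). It lay above them at 6 (16.7%, against 39.6%), and both VSG mice lay above it at 25 (69.4%, against 41.7%). Without VSG mouse 1, the lone VSG mouse lay above both Sham mice at 24 (66.7%, against 39.1%). Without VSG mouse 2 it did so at 15 (41.7%, against 32.8%).

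**Figure D2:**
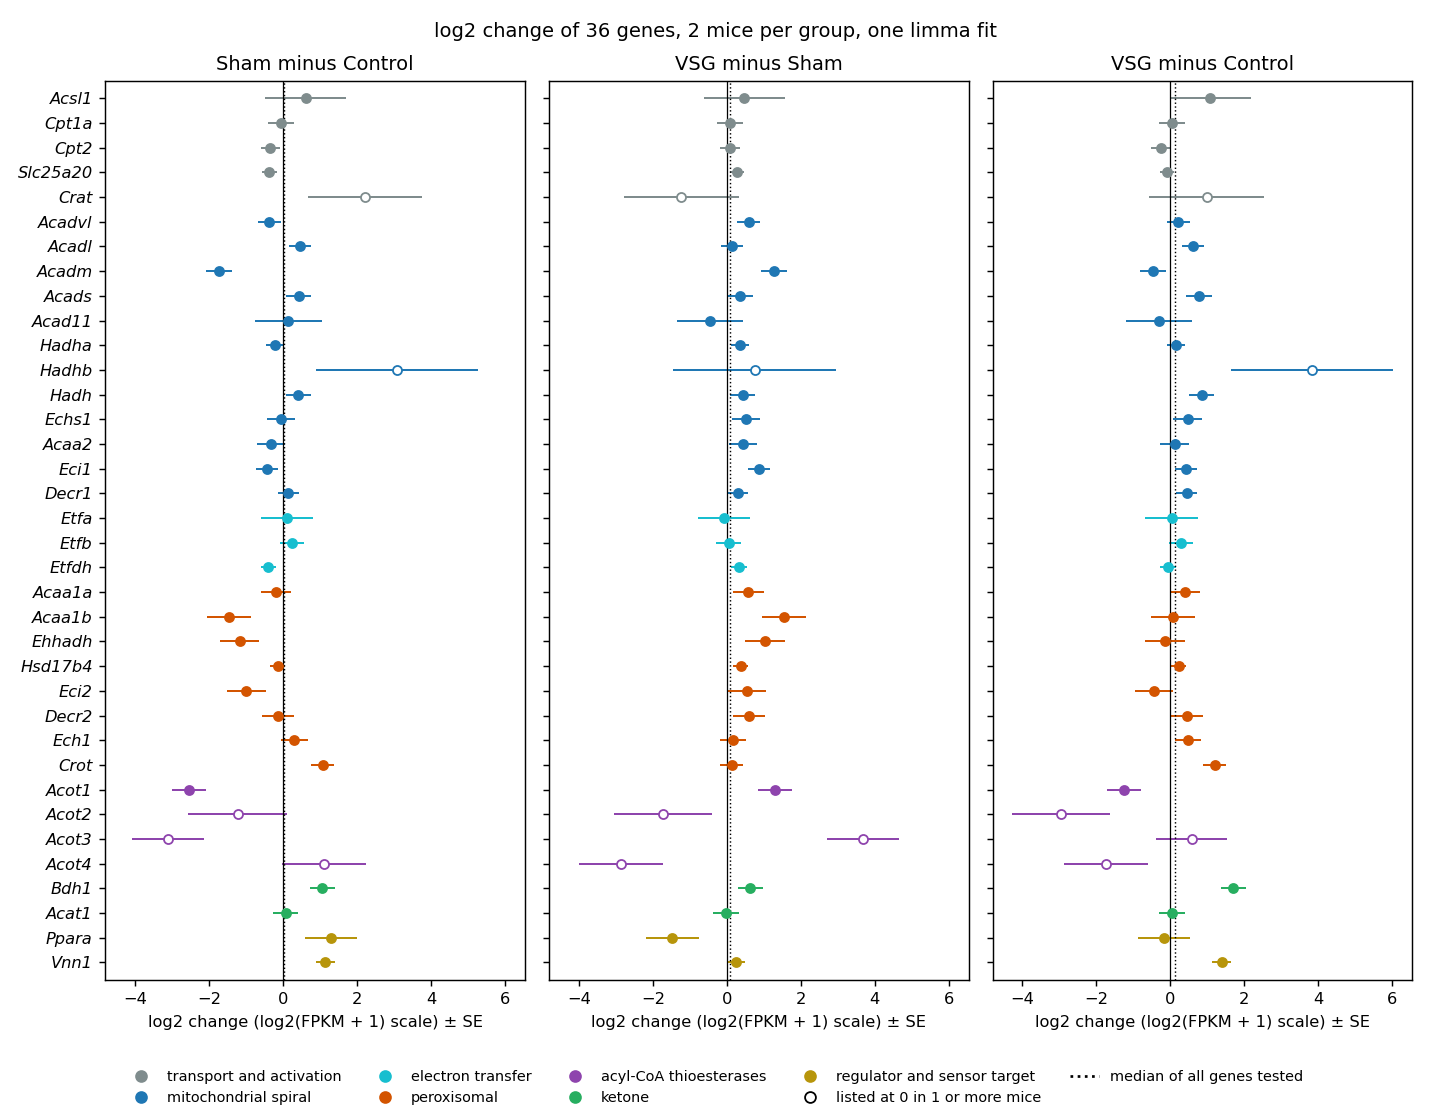
Each point is the log2 difference of 1 of 36 genes on the log2(FPKM + 1) scale with its standard error (SE) from one limma fit, with 2 mice per group, and open points are genes listed at 0 in 1 or more mice. Acot1 and Acadm lie farthest left among the filled points for Sham minus Control (-2.55 and -1.73), and most filled points lie right of 0 for VSG minus Sham.

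Of the 5 genes of transport and activation, the log2 difference was above 0 at 2 for Sham minus Control, at 4 for VSG minus Sham and at 3 for VSG minus Control. Cpt1a, the carnitine palmitoyltransferase of the outer membrane that sets the rate of mitochondrial entry, had 117 and 132 FPKM in Control, 87.6 and 164 in Sham and 136 and 120 in VSG mice. The Sham mice enclosed the mice of the other groups, and the log2 differences were -0.05 (SE 0.35) for Sham minus Control, 0.09 (SE 0.35) for VSG minus Sham and 0.04 (SE 0.35) for VSG minus Control. Acsl1, which activates long-chain fatty acids, was the least reproducible of the 31 genes between Control mice, though not between Sham or VSG mice. It had 39.5 and 349 FPKM in Control, 270 and 120 in Sham, and 186 and 338 in VSG mice. Its Control mice differed 8.82-fold. Slc25a20, the carnitine-acylcarnitine carrier, was lower in both Sham mice (64.9 and 67.4 FPKM) than in Control (81.3 and 90.6) and VSG mice (81.9 and 79.6). Cpt2, the inner-membrane transferase, had 77.7 and 93.8 FPKM in Control, 79.7 and 56.3 in Sham, and 77.5 and 66.1 in VSG mice. Crat, carnitine acetyltransferase, was listed at 0 in 4 mice, with 20.5 FPKM in Sham mouse 1 and 2.89 in VSG mouse 2.

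Acadm, the medium-chain acyl-CoA dehydrogenase, had the clearest pattern of the mitochondrial spiral. It had 167 and 156 FPKM in Control mice, 60.8 and 37.7 in Sham mice and 92.1 and 148 in VSG mice. No Sham mouse overlapped a mouse of another group, and the Control mean was 3.28 times and the VSG mean 2.43 times the Sham mean. The log2 difference was -1.73 (SE 0.36, adjusted p = 0.267) for Sham minus Control, 1.27 (SE 0.36, adjusted p = 0.93) for VSG minus Sham and -0.47 (SE 0.36, adjusted p = 0.726) for VSG minus Control in limma. Leaving out VSG mouse 1 gave -0.13 for the last, and leaving out VSG mouse 2 gave -0.80.

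Of the dehydrogenases for other chain lengths, Acadl and Acads overlapped between Sham and Control, and Acadvl had the direction of Acadm in Sham against both other groups. Acadl, which acts on long chains, had 71.7 and 112 FPKM in Control, 139 and 111 in Sham, and 146 and 130 in VSG mice. Acads, for short chains, had 75.4 and 47.9, 97.6 and 66.4, and 93.1 and 115 FPKM, and its log2 difference for VSG minus Control was 0.77 (SE 0.34, adjusted p = 0.572), or 0.45 without Control mouse 2. Both genes were higher in VSG than in Control mice without overlap. Acadvl, for very long chains, had 206 and 208 FPKM in Control, 204 and 125 in Sham and 224 and 259 in VSG mice. Its Sham mice lay below the mice of both other groups, Sham mouse 1 by little. Acad11, a further member of the acyl-CoA dehydrogenase family, had 44.8 and 140.4 FPKM in Control, 84.2 and 91.9 in Sham and 28.9 and 141 in VSG mice. Its Control mice differed 3.13-fold and its VSG mice 4.88-fold, the latter more than any other of the 31 genes in that group.

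The trifunctional protein, which carries out the last steps for long chains, is made of the products of Hadha and Hadhb. Hadha had 92.0 and 115 FPKM in Control, 80.9 and 96.6 in Sham and 104 and 125 in VSG mice, with log2 differences of -0.22 (SE 0.24), 0.36 (SE 0.24) and 0.14 (SE 0.24) for Sham minus Control, VSG minus Sham and VSG minus Control. Leaving out 1 mouse at a time gave -0.38 to -0.06 for the first and 0.23 to 0.49 for the second. Hadhb had 114 FPKM in Control mouse 1 and was listed at 0 in Control mouse 2, with 62.8 and 127 FPKM in Sham and 138 and 165 in VSG mice. In that Control mouse its partner Hadha had 115 FPKM. The 2 genes start back to back on chromosome 5, with 85 bases between their first exons (mm9, chr5:30481703-30481787, plus strand), and share 1 peak of open chromatin in each list. The stretch is shown in lower case because it separates the starts of both subunits and lies wholly under that peak in each list, and it holds 69.4% G and C.
Hadha to Hadhb: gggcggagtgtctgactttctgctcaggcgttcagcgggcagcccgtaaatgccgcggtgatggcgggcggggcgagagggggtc

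Of the remaining spiral genes, Eci1, which shifts the double bond of unsaturated fatty acids, separated the VSG mice most evenly. It had 130 and 127 FPKM in Control, 121 and 73.2 in Sham and 171 and 175 in VSG mice, and its log2 difference for VSG minus Sham was 0.87 (SE 0.30, adjusted p = 0.941), or 0.51 without Sham mouse 2. Hadh, the short-chain hydroxyacyl-CoA dehydrogenase, had 165 and 147 FPKM in Control, 275 and 156 in Sham, and 261 and 301 in VSG mice, and its log2 difference for VSG minus Control was 0.84 (SE 0.34, adjusted p = 0.531). Echs1, the hydratase, and Decr1, the dienoyl-CoA reductase, were likewise above Control in both VSG mice (155 and 188 against 136 and 111 FPKM, and 79.4 and 111 against 74.3 and 64.4 FPKM), with 165.6 and 83.9 and 90.0 and 64.7 FPKM in the Sham mice. Acaa2 had 608 and 565 FPKM in Control, 656 and 333 in Sham and 594 and 681 in VSG mice. Sham mouse 2 was the lowest of the 6 at Acaa2, Acadvl, Echs1 and Eci1, whereas Sham mouse 1 was near or above the Control mice at the first 3 of these.

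Electron transfer genes pass the electrons of the acyl-CoA dehydrogenases to the respiratory chain. Etfdh, the membrane-bound oxidoreductase, was lower in both Sham mice (84.0 and 84.3 FPKM) than in Control (102 and 121) and VSG mice (100.4 and 113). Etfa, the alpha subunit of the electron carrier, had 107 and 214, 233 and 114, and 88.4 and 272 FPKM in Control, Sham and VSG mice, and Etfb, the beta subunit, had 323 and 290, 464 and 286, and 422 and 336 FPKM. Their groups overlapped except at Etfb, where both VSG mice exceeded both Control mice.

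Of the 8 peroxisomal genes tested, 4 had lower levels in both Sham than in both Control mice, Ehhadh, Acaa1b, Eci2 and Hsd17b4, and all of these except Eci2 were also below both VSG mice. Of all genes, 20.6% were lower in Sham than in Control without overlap and 18.6% were higher in VSG than in Sham, and no test was made of the peroxisomal genes against these shares. Ehhadh, the bifunctional enzyme of peroxisomal oxidation, had 78.6 and 240 FPKM in Control, 58.3 and 62.0 in Sham and 123 and 126 in VSG mice. The Sham mice agreed closely and lay below the other 4, while the Control mice differed 3.05-fold. Its log2 difference was -1.18 (SE 0.54, adjusted p = 0.509) for Sham minus Control, 1.04 (SE 0.54, adjusted p = 0.941) for VSG minus Sham and -0.14 (SE 0.54, adjusted p = 0.958) for VSG minus Control. Without Control mouse 2 the first of these was -0.38 and the last 0.66.

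Acaa1b, a peroxisomal thiolase, had 606 and 615 FPKM in Control, 377 and 128 in Sham and 490 and 852 in VSG mice. The log2 difference for VSG minus Sham was 1.55 (SE 0.59, adjusted p = 0.941), and the Sham mice differed 2.96-fold from each other. Without Sham mouse 2 this log2 difference was 0.78. Its paralog Acaa1a, which lies 184.2 kb away on chromosome 9, had 257 and 233, 313 and 148, and 295 and 355 FPKM, and its Sham mice spanned the Control mice. Short reads from such paralogs can be shared between them, so the split of FPKM between the 2 genes is uncertain. Eci2, a peroxisomal isomerase, had 232 and 259 FPKM in Control, 72.9 and 206 in Sham, and 200.3 and 162 in VSG mice. Its noncoding transcript was listed at 0 in Sham mouse 1 alone. Hsd17b4, the second bifunctional enzyme, differed little in size but without overlap, with 156 and 166 FPKM in Control, 144.9 and 145 in Sham and 183 and 195 in VSG mice.

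Crot, the carnitine octanoyltransferase that exports shortened chains from peroxisomes, went the other way. It had 113 and 150 FPKM in Control, 289 and 259 in Sham and 367 and 244 in VSG mice. Both high-fat groups lay above Control, and the log2 difference was 1.07 (SE 0.30, adjusted p = 0.358) for Sham minus Control and 1.20 (SE 0.30, adjusted p = 0.382) for VSG minus Control. Ech1, a dienoyl-CoA isomerase, had 339.5 and 326 FPKM in Control, 561 and 300.4 in Sham, and 478 and 444 in VSG mice. Decr2, the peroxisomal reductase, had 97.6 and 100.5, 136 and 58.9, and 123 and 152 FPKM. At both of these genes the VSG mice exceeded the Control mice and the Sham mice spanned them.

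Acyl-CoA thioesterases release free fatty acids from acyl-CoA, Acot1 in the cytosol, Acot2 in mitochondria and Acot3 and Acot4 in peroxisomes. The 4 genes lie within 71.7 kb of chromosome 12 in the order Acot2, Acot1, Acot4 and Acot3 and are close paralogs, so their FPKM may hold shared reads. Acot1 had the largest log2 difference of the 31 genes above 0 throughout, that of Sham minus Control. It had 70.4 and 157 FPKM in Control, 17.1 and 17.2 in Sham and 34.0 and 56.3 in VSG mice. The 3 groups did not overlap, with VSG between the others, and the Control mean was 6.64 times and the VSG mean 2.63 times the Sham mean. The log2 difference was -2.55 (SE 0.46, adjusted p = 0.212) for Sham minus Control, 1.30 (SE 0.46, adjusted p = 0.941) for VSG minus Sham and -1.25 (SE 0.46, adjusted p = 0.503) for VSG minus Control in limma. Leaving out 1 mouse at a time gave -3.13 to -1.98 for the first, and -0.67 for the last without Control mouse 2.

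Acot3 had 9.07 and 25.2 FPKM in Control and 11.1 and 47.0 in VSG mice, and in Sham mice it was listed at 0 in mouse 1 and had 2.49 FPKM in mouse 2. Its log2 difference was -3.12 (SE 0.97, adjusted p = 0.386) for Sham minus Control and 3.69 (SE 0.97, adjusted p = 0.856) for VSG minus Sham, values that rest on a listed 0 and were -4.90 and 5.50 with a pseudocount of 0.1. Acot2 had 18.4 and 46.0 FPKM in Control, 9.46 and 14.8 in Sham, and 14.1 FPKM in VSG mouse 1 with 0 listed in VSG mouse 2. Acot4 had 10.3 FPKM in Control mouse 1, 5.04 and 7.68 in the Sham mice, and was listed at 0 in Control mouse 2 and both VSG mice. Its log2 difference for VSG minus Sham was -2.86 (SE 1.14, adjusted p = 0.941). This value rests on the zeros listed in both VSG mice, and its size is set by the pseudocount, since it was -5.98 with a pseudocount of 0.1. Among the 4 thioesterases the Sham mice were thus lower than Control without overlap at Acot1, Acot2 and Acot3 and not at Acot4. Of all genes, 20.6% were lower in Sham than in Control without overlap. No test was made of the thioesterases against this share.

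The 2 ketone genes differed from each other. Bdh1, which interconverts acetoacetate and beta-hydroxybutyrate, had 46.1 and 32.6 FPKM in Control, 107 and 62.7 in Sham and 130 and 127 in VSG mice. The 3 groups did not overlap and VSG was highest, at 3.26 times the Control mean. The log2 difference was 1.06 (SE 0.34, adjusted p = 0.399) for Sham minus Control, 0.64 (SE 0.34, adjusted p = 0.941) for VSG minus Sham and 1.70 (SE 0.34, adjusted p = 0.321) for VSG minus Control. Without Sham mouse 2 the difference of VSG minus Sham was 0.26, and without Sham mouse 1 that of Sham minus Control was 0.68. Acat1, the mitochondrial acetoacetyl-CoA thiolase, had 96.8 and 52.8 FPKM in Control, 67.1 and 83.5 in Sham, and 68.5 and 79.7 in VSG mice. Its groups overlapped, with log2 differences of 0.06 (SE 0.35), -0.02 (SE 0.35) and 0.05 (SE 0.35) for Sham minus Control, VSG minus Sham and VSG minus Control.

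Ppara was measured through 2 transcripts that behaved differently. Summed, it had 7.30 and 30.5 FPKM in Control, 41.9 and 36.2 in Sham and 9.31 and 19.0 in VSG mice. Transcript NM_011144 lay between 7.30 and 19.0 FPKM in all mice and did not separate the groups, whereas NM_001113418 had 17.6 FPKM in Control mouse 2 and 32.8 and 23.7 in the Sham mice, and was listed at 0 in Control mouse 1 and both VSG mice. The log2 difference of the sum was 1.30 (SE 0.71, adjusted p = 0.561) for Sham minus Control, -1.47 (SE 0.71, adjusted p = 0.941) for VSG minus Sham and -0.17 (SE 0.71, adjusted p = 0.963) for VSG minus Control. The first of these was 0.34 without Control mouse 1 and 2.27 without Control mouse 2. With the highest transcript alone in place of the sum, the 3 differences were 2.74, -4.85 and -2.11 in the same order. These values rest on listed zeros. Vnn1, a pantetheinase that is a sensitive target of PPARα, had 19.9 and 25.9 FPKM in Control, 46.9 and 55.9 in Sham and 54.2 and 68.7 in VSG mice. Both high-fat groups lay above Control and overlapped each other, with log2 differences of 1.14 (SE 0.25, adjusted p = 0.283) for Sham minus Control, 0.25 (SE 0.25, adjusted p = 0.95) for VSG minus Sham and 1.39 (SE 0.25, adjusted p = 0.282) for VSG minus Control.

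**Figure D3:**
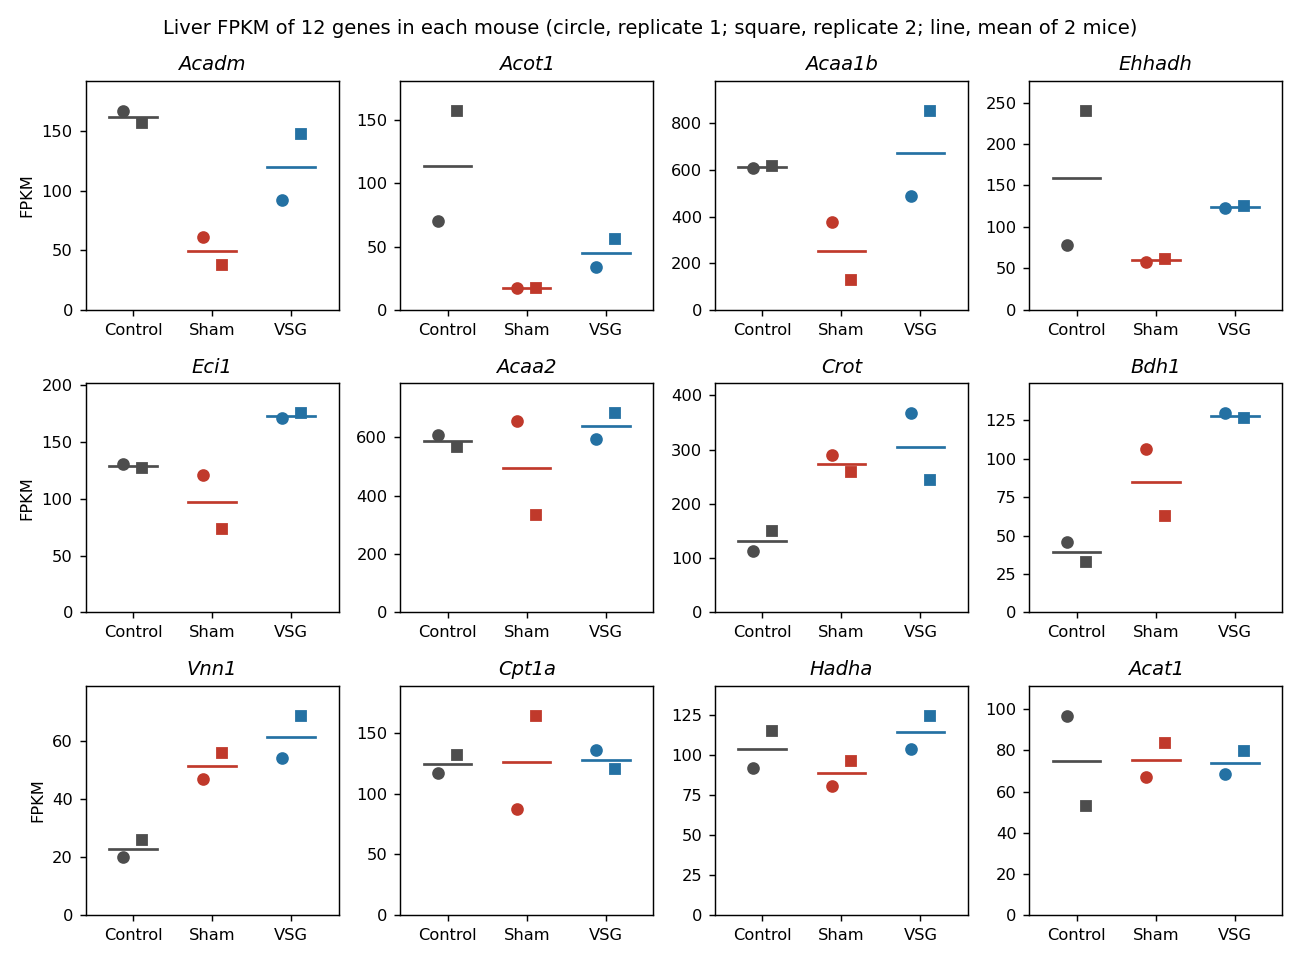
FPKM of 12 genes in each mouse, with circles for replicate 1, squares for replicate 2 and lines for the mean of 2 mice. Acadm, Acot1, Acaa1b and Ehhadh are lowest in both Sham mice, Crot, Bdh1 and Vnn1 are lowest in both Control mice, and Cpt1a and Acat1 overlap in all groups.

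Known PPARα targets thus did not share 1 direction between Control and Sham mice. Acot1, Ehhadh and Acaa1b were lower in both Sham mice, Vnn1 was higher in both, and Cpt1a overlapped.

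Other genes of the same pathways gave few calls at an FDR of 10%. Of 25 tested genes of mitochondrial oxidation, 36 peroxisomal genes and 6 ketone genes outside the 37, none passed in any comparison, and 5, 4 and 2 of them had an unadjusted limma p under 0.05 between Sham and Control, where 11% of all genes did. Between VSG and Sham 0, 3 and 1 did (4.86% of all genes), and between VSG and Control 3, 6 and 2 (9.6%). Of these lists, Cd36 between Sham and Control (adjusted p = 0.0966) and Lonp2 between VSG and Control (adjusted p = 0.0765) were called by limma without a filter on low values. Among 32 tested PPARα partners and further targets, the log2 difference for Sham minus Control was above 0 at 15 and below 0 at 17. Of this list, Ucp2, a mitochondrial carrier, rose from 10.04 and 8.42 FPKM in Control to 42.9 and 50.9 in Sham mice. It had 36.9 and 32.1 FPKM in VSG mice. Its log2 difference for Sham minus Control was called by limma (2.23, SE 0.22, adjusted p = 0.0691), where 0.308% of all genes were called. This call was lost under 6 of 11 alternatives, without either Control mouse and without Sham mouse 1 among them (adjusted p from 0.0513 to 0.518 in limma). Lpin1, a phosphatidate phosphatase and PPARα coactivator, had 91.9 and 129 FPKM in Control, 6.80 and 10.3 in Sham and 13.4 and 5.95 in VSG mice (Sham minus Control log2 -3.55, SE 0.44, adjusted p = 0.118). Cyp4a10 and Cyp4a14, fatty acid hydroxylases, had the smallest p of that list for VSG minus Sham, with log2 differences of 1.06 (SE 0.43) and 1.56 (SE 0.68) and an adjusted p of 0.941 for both.

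Among genes of uptake and disposal, Cd36, a fatty acid transporter, had 6.73 and 6.48 FPKM in Control, 22.5 and 23.3 in Sham and 20.3 and 25.2 in VSG mice (Sham minus Control log2 1.65, SE 0.21, adjusted p = 0.118). Acacb, whose enzyme makes malonyl-CoA, an inhibitor of Cpt1a, had 3.79 and 11.6 FPKM in Control, 0.829 and a listed 0 in Sham and 1.11 and 1.86 in VSG mice. Lonp2, a peroxisomal protease, had 49.4 and 54.4, 106 and 109, and 168 and 165 FPKM, in groups that did not overlap (VSG minus Control log2 1.67, SE 0.19, adjusted p = 0.11). Bdh2, a cytosolic relative in name of Bdh1, had 10.4 and 12.9, 3.33 and 2.02, and 2.72 and 6.62 FPKM in Control, Sham and VSG mice. It was lower in both high-fat groups than in Control, where Bdh1 was higher.

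Of 10 tested genes that follow fasting and feeding, Tat alone was called, between Sham and Control and between VSG and Control, and none was called by limma between VSG and Sham. An unadjusted p under 0.05 was found for 5, 4 and 2 of them in that order (11%, 9.6% and 4.86% of all genes). Tat, which degrades tyrosine and is induced by fasting, fell from 1376 and 1477 FPKM in Control to 210.2 and 188 in Sham mice (log2 -2.84, SE 0.24, adjusted p = 0.0436), and had 233 and 283 FPKM in VSG mice (VSG minus Control log2 -2.47, SE 0.24, adjusted p = 0.0662). The call between Sham and Control was lost under 5 of 11 alternatives, among them leaving out either Control mouse (adjusted p from 0.0267 to 0.469). That between VSG and Control was lost under 7 of 11, among them leaving out any of the 4 mice (0.0397 to 0.562). The summed level of the list was 4235 to 4767 FPKM in Control, 855 to 1333 in Sham and 1104 to 1676 in VSG mice. G6pc, glucose-6-phosphatase, had 144 and 272, 24.3 and 27.02, and 87.8 and 149.8 FPKM, without overlap between Sham and the other groups (VSG minus Sham log2 2.12, SE 0.42, adjusted p = 0.606). Feeding state at collection cannot be told apart from diet and surgery between Control and the other groups. Between VSG and Sham mice, which shared a diet, it cannot be told apart from the operation. The part of feeding state, diet and surgery in the levels of the 37 genes was not tested.

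Open chromatin was compared at the same genes on the mm9 build. All 37 genes had a FAIRE peak within 1000 bp of an annotated start in each of the 3 lists, where 90% of genes tested in the RNA data did in Control, 89.6% in Sham and 91% in VSG. Within 250 bp the count was 36, 36 and 35, against 87.6%, 86.8% and 88.8% of genes tested. Acot3 had no such peak in any list and Vnn1 none in VSG. Pex11a, listed at 0 in the RNA data, had a promoter peak in every list. Control, Sham and VSG lists comprised 42204, 52881 and 44539 peaks with median signals of 0.252, 0.398 and 0.298, so the signal of a promoter peak was expressed as its percentile among the genes with a promoter peak in the same list. Each list pools 2 mice, so these values have no replicate error and no test.

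Promoter ranks covered the whole scale. The median percentile of the 37 genes was 69.7 in Control (36 genes with a peak within 250 bp), 61.3 in Sham (36 genes) and 63.2 in VSG (35 genes). Within 1000 bp, where all 37 had a peak, it was 68.6, 65.6 and 63, so the order of Sham and VSG depends on the window. Vnn1 ranked near the bottom, at 0.355 in Control and 0.663 in Sham, and Cpt2 near the top, at 99 in Control. Cpt1a ranked at 27.6, 18.3 and 26.6 in Control, Sham and VSG, and Acadm at 79.4, 79.6 and 84.4. The differences in Acadm transcripts were thus not accompanied by a lower promoter rank in Sham. From Control to Sham the percentile was lower at 23 of 36 genes (63.9%, against 56% of all genes), with a median difference of -3.21 (-1.51 over all genes), and from Sham to VSG it was higher at 23 of 35 genes (65.7%, against 61.6%), with a median difference of 6.58 (3.53 over all genes). Within 1000 bp the percentile was lower from Control to Sham at 20 of 37 genes (54.1%, against 54.6%) and higher from Sham to VSG at 21 (56.8%, against 60%). From Control to VSG it was lower at 20 of 35 genes within 250 bp (57.1%, against 44.5%; median difference -2.37, against 1.18) and at 22 of 37 within 1000 bp (59.5%, against 44.3%; median -2.22, against 1.2), while most of all genes were higher. Hadha and Hadhb share 1 promoter peak, which is counted once for each gene in these shares. The shares have no test.

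Acot1 and Ehhadh stood at the end of that range, and both also had lower transcript levels in both Sham mice. The promoter peak of Acot1 went from the percentile 61.4 in Control to 5 in Sham and 15 in VSG, a difference of -56.4 between Sham and Control that 0.0687% of 10192 genes reached or exceeded. Within 1000 bp it was 62.1, 28.3 and 23, a difference of -33.8 between Sham and Control (0.213% of 10809 genes), and VSG was then below Sham. In that window the highest peak of the Sham and VSG lists was the one about 1 kb upstream. That of Ehhadh went from 75 in Control to 45.5 in Sham and 76.9 in VSG. A difference at least as low was found for 0.952% of 10192 genes between Sham and Control, and one at least as high for 0.417% of 10323 genes between VSG and Sham. Within 1000 bp Ehhadh was at 75.5, 46.4 and 77.4. The next lowest difference between Sham and Control within 250 bp, -24.2, was at Crat. Not every gene with fewer transcripts in Sham had a lower rank, as Acadm shows, and Acaa1b went from 47.6 to 39.6 and then to 37 within 250 bp, and from 48.5 to 58.3 and then to 38 within 1000 bp.

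**Figure D4:**
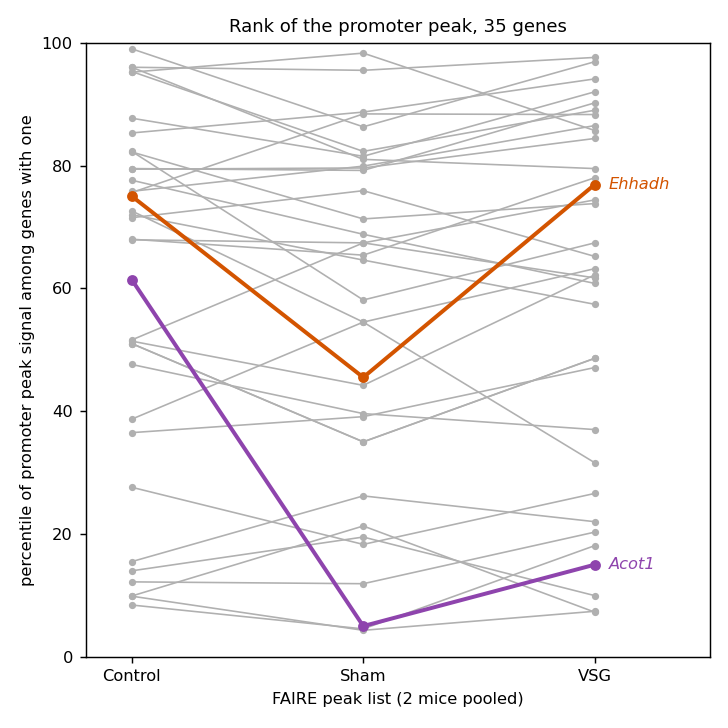
Each line is 1 of 35 genes with a peak within 250 bp of a start in all 3 lists, and the vertical axis is the percentile of its promoter peak signal among all genes with such a peak in that list. Acot1 (purple) goes from 61.4 to 5 and 15, while Ehhadh (orange) goes from 75 to 45.5 and 76.9.

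At Acot1, 3 peaks within 2500 bp of the start were called in all 3 lists. The peak over the start (chr12:85350263-85350615 in the Control list, 353 bp) reached 0.578, 0.248 and 0.305 signal units in the Control, Sham and VSG lists, which is the percentile 89.1, 19.7 and 51.4 among all peaks of each list. The neighbouring peak with its summit about 1 kb upstream held 63.2, 64.7 and 63.6, and the one within the first 2500 bp of the gene held 74.7, 88.9 and 66.7. The Control list had a further peak 176 to 646 bp downstream of the start, which neither other list held, and the Sham list one 800 to 992 bp downstream, which was likewise in that list alone. Percentiles among all peaks also depend on the length of each list. At Ehhadh the peak over the start (chr16:21787524-21788366 in the Control list) had a signal of 0.661, 0.761 and 1.06, and stood at 93.5, 80.2 and 94.5 among all peaks. Signal values of different lists are not on a common scale, as their medians show, which is why ranks are given.

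**Figure D5:**
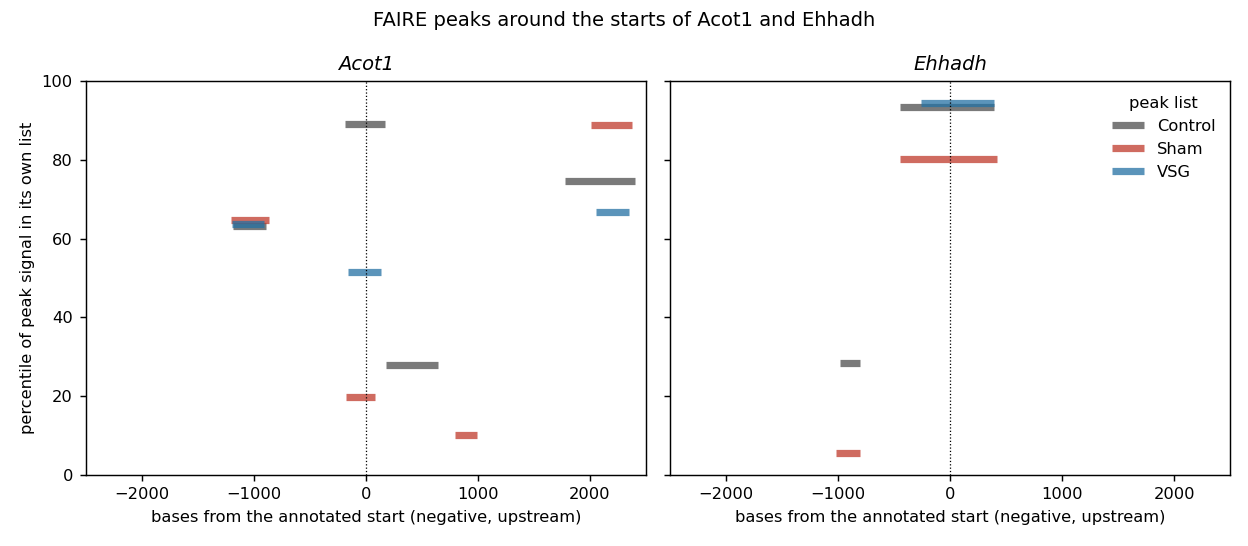
Bars are FAIRE peaks around the annotated starts of Acot1 (left) and Ehhadh (right), drawn over their extent in bases from the start, and their height is the percentile of the peak signal in its own list. Over the start of Acot1 the Control bar is at 89.1 and the Sham bar at 19.7, whereas the bars about 1 kb upstream lie within 63.2 to 64.7.

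The 200 bases before the starts of both genes are given below from mm9, 5′ to 3′ on the strand of the gene, since most or all of them lie under the peaks whose rank differed (185, 173 and 163 bases of Acot1 in the Control, Sham and VSG peaks, and all 200 of Ehhadh). Acot1 is at chr12:85350248-85350447 on the plus strand (50.5% G and C), and Ehhadh at chr16:21787918-21788117 on the minus strand (59% G and C). Both stretches are free of annotated exons. Capitals mark the 1 CCAAT box in each, searched as CCAAT or its complement ATTGG, which is the recognition sequence of the factor NF-Y. Such a box occurs in the same window of 14 of the 37 genes (37.8%) and of 30.6% of 22225 coding genes.
Acot1: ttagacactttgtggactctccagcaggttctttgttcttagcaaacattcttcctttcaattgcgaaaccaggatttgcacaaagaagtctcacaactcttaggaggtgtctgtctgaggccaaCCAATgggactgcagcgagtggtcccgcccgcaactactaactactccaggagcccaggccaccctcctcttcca
Ehhadh: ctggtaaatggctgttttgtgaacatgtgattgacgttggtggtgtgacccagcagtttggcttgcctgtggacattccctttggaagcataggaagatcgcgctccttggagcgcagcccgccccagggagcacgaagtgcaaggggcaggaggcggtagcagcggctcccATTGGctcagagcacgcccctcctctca

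Peaks within the genes and 10000 bp around them were counted, promoter peaks included. There were 241 merged peaks, of which 133 (55.2%) were held by all 3 lists, the same share as among all 59249 merged peaks (55.2%). Peaks of the Sham list alone made up 13.7% near the 37 genes and 17.1% of all merged peaks, those of the Control list alone 9.13% and 5.32%, and those of Control and Sham without VSG 9.13% and 5.06%. Sham and VSG without Control held 9.54% against 10.3%, VSG alone 2.07% against 3.82%, and Control and VSG without Sham 1.24% (3 peaks, near Acsl1, Echs1 and Acaa1b) against 3.17%. Peaks of the Control list alone included 4 at Acsl1, 5 at Ppara and the one at Acot1 described above. In a split made after the data were seen, 167 of the 241 lay over 1000 bp from any coding start, and 78 of these (46.7%) were held by all 3 lists, against 48% of all 43669 such peaks. Control and Sham without VSG held 11.4% of the 167 against 6.12%, Control alone 9.58% against 5.36%, and Sham alone 17.4% against 21.8%. The number of peaks in each list differs, and no test was made on these shares.

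PPARα binds with its partner RXR to a direct repeat of AGGTCA with 1 base between the copies. The sequence was searched on both strands first as AGGTCA, any 1 base and AGGTCA again, and then with the fourth base of each copy free (AGGNCA, any 1 base, AGGNCA), of which the first is a special case. Within 1000 bp of a start the first was found at 0 of the 37 genes and 0.365% of 22219 coding genes. The second was found at 3 of the 37 genes (8.11%), Acads, Etfdh and Acaa1b, and at 4.03% of coding genes. The 300 bases around the summits of peaks near the 37 genes were searched as well. There the second was present in 3 of 186 Control (1.61%), 5 of 220 Sham (2.27%) and 5 of 173 VSG peaks (2.89%). Of all peaks in the Control, Sham and VSG lists, 1.64%, 1.91% and 1.72% held it. The first was present in 2 of 186 Control peaks (1.08%), 2 of 220 Sham peaks (0.909%) and 1 of 173 VSG peaks (0.578%) near the 37 genes, against 0.166%, 0.233% and 0.168% of all peaks. A match is a description of the sequence and not a binding site.

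Matches under peaks were found at 8 genes, and 6 of them are shown with 20 bases on each side on the strand of the repeat, except at Cpt1a, where overlapping matches fill a tandem repeat. Capitals mark the matched bases. That of Acaa1b is the full repeat, lies beyond the end of the gene at chr9:119054411-119054423, 11788 bp from its start, and is under a peak in all 3 lists. The other full repeat lies in an intron of Acaa2, 5771 bp from its start, under a peak in the Control and Sham lists and not in VSG, and its bases are not shown here. A match in an exon of Etfdh, 304 bp from a start and under a peak in every list, is not shown either. The match in the first intron of Acads (chr5:115569120-115569132, 223 bp from the start) is also under a peak in all lists. Those in introns of Decr1 (chr4:15853123-15853135) and Cpt1a (chr19:3369573-3369625, the stretch shown) are under peaks of the VSG list alone, that in an intron of Crot (chr5:8981442-8981454) under a peak of the Sham list alone, and that in an intron of Ppara (chr15:85604823-85604835) under a peak in every list.
Acaa1b: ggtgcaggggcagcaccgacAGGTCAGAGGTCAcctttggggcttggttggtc
Acads: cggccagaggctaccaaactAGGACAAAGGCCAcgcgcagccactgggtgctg
Decr1: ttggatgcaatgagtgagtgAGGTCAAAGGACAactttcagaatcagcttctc
Cpt1a: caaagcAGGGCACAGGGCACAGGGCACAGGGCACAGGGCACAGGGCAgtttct
Crot: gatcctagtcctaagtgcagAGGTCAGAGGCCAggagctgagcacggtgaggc
Ppara: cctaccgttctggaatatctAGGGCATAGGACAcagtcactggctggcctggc

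These matches lie near genes that differ in their transcript patterns. Acaa1b was lower in both Sham mice, Crot was higher in both high-fat groups, and Cpt1a overlapped in all groups. Acot1 and Ehhadh, where the promoter rank was lower in Sham by the most, had no match in the windows searched.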

How the data were processed

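RNA levels were analysed from the table of FPKM values that the authors deposited, made with Cufflinks after alignment to mm9 with TopHat2. Reads were 50-bp from HiSeq 2500. The labels name poly(A) enrichment and the methods name depletion of ribosomal RNA. Of 34933 transcripts, 34042 matched a gene symbol through RefSeq tables (GRCm38.p6, names only), and FPKM was summed per gene. The members and lists were chosen with earlier results of these data known. Groups were compared with limma 3.58.1 in R 4.3.3 (trend) on log2(FPKM + 1), in one fit of 6 mice, with Benjamini-Hochberg adjustment over 9748 genes with at least 1 FPKM in at least 2 mice. The fit was tested on simulated data, where it missed part of the changes put in and called some unchanged genes. Every gene is given by its level, and statistics are given for the 6 with the smallest p per comparison, for Cpt1a, Ppara, Ehhadh, Acadm, Hadha, Acot1, Vnn1, Bdh1 and Acat1, and for called genes and the 2 with the smallest p of the other pathway lists (some of these by level alone, and some not reported here).

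The FAIRE peak signal, deposited by the authors, came from F-seq after bowtie alignment, with peaks kept by IDR over 2 mice. Starts were those of GENCODE on NCBIM37 (mm9). The authors' tables of fold changes with p-values and their lists of variable sites were not used. Alternatives were other pseudocounts, filters, scaling, transcripts, samples and windows. Python 3.11.15 was used.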

Additional observations from a re-analysis of the deposited data

How the results depend on the processing

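No gene of the 36 was called under any alternative tried in any comparison. Without a filter on low values, 62 genes of all were called between Sham and Control. With at least 1 FPKM required in all 6 mice, 0 genes were called in each comparison. A pseudocount of 0.1 gave 8 calls between VSG and Sham, and fitting the 2 groups alone gave 0. Samples of the same replicate number were not paired by animal, and their deviations correlated at 0.106, 0.0304 and 0.059. With the replicate number as a block, 9 genes were called between Sham and Control, 0 between VSG and Sham and 10 between VSG and Control.

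Leaving out 1 mouse at a time gave 0 (without either Control mouse) to 158 calls (without Sham mouse 2) between Sham and Control, with 57 without Sham mouse 1. It gave 0 (without either VSG mouse) to 51 (without Sham mouse 2) between VSG and Sham, with 34 without Sham mouse 1, and 0 (without either Control mouse) to 11 between VSG and Control, with 6 without VSG mouse 2. A lone mouse was assumed to vary like the other groups. The median log2 difference of the 36 genes then ranged from -0.18 to 0.26 for Sham minus Control, from 0.0724 to 0.52 for VSG minus Sham and from 0.07 to 0.43 for VSG minus Control, where the medians of all genes were 0.0197 to 0.0963, 0.0136 to 0.115 and 0.112 to 0.159. The counts without overlap, an alternative added after the data were seen, ranged from 6 to 16 (without Sham mouse 2; 10 and 8 without Control mouse 1 and 2) above and 14 to 19 (without Sham mouse 1) below Control in Sham. They ranged from 15 to 25 (without Sham mouse 1; 24 without VSG mouse 1) above and 4 (without either VSG mouse) to 6 (without either Sham mouse) below Sham in VSG, and from 17 to 23 above and 6 to 10 (without Control mouse 1; 9 without VSG mouse 2) below Control in VSG. Separation of 1 mouse from 2 is easier by construction, and the shares of all genes were then 34.1% to 46.6% above and 28.4% to 38.1% below Control in Sham, 32.8% to 41.7% above and 23% to 30.5% below Sham in VSG, and 43.8% to 52.2% above and 22% to 31.3% below Control in VSG.

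Of 65 single-gene differences, 61 kept direction and call under median-of-ratios scaling. The other 4 were near 0: Cpt1a, -0.0169 for VSG minus Sham and -0.12 for VSG minus Control, with Hadha -0.0188 and Acat1 -0.11 for VSG minus Control. Leaving out 1 mouse turned the sign in 15 of 260 values. For Sham minus Control the ranges were -0.50 to 0.40 for Cpt1a and -0.37 to 0.49 for Acat1. For VSG minus Sham they were -0.36 to 0.54 for Cpt1a and -0.17 to 0.14 for Acat1. For VSG minus Control they were -0.0495 to 0.13 for Cpt1a, -0.0212 to 0.30 for Hadha, -1.13 to 0.79 for Ppara, -0.94 to 0.66 for Ehhadh and -0.39 to 0.48 for Acat1. Of 36 differences of the 37 genes given with statistics, 21 were moved by over 1.5 times when 1 mouse was left out. Ucp2 and Tat between Sham and Control lost their call with the replicate block, with 2 groups fitted alone, with the stricter filter and without either Control mouse, and Ucp2 also without Sham mouse 1 (adjusted p = 0.102 in limma). Tat between VSG and Control lost its call without a filter (adjusted p = 0.104), with the stricter filter (0.153), with the replicate block (0.229) and without any 1 of the 4 mice (0.2 to 0.562). The cause was not tested. Promoter peak counts of 31 to 37 were found under every window, signal or overlap alternative, against 78.1% to 93.7% of genes tested in the RNA data. With only the peaks of higher signal the counts were 31, 33 and 32 in Control, Sham and VSG, against 79.9%, 78.1% and 81.9%. Depth limits are unknown beyond the relative values given.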
